A study of Drosophila melanogaster with 12 samples.

Results

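Cytochrome P450 genes encode heme enzymes that insert an oxygen atom into a substrate, with electrons passed to them by partner proteins. In insects they fall into the CYP2, CYP3, CYP4 and mitochondrial clans. The CYP2 and mitochondrial clans hold enzymes that make and break down the moulting hormone ecdysone, whereas the CYP3 and CYP4 clans hold large, fast-evolving families that oxidise plant toxins, insecticides and fatty acids. In the fly, the midgut, the Malpighian tubules (the excretory organ) and the fat body are known for P450s that handle foreign compounds, and the oenocytes, cells beneath the cuticle, for a P450 that makes cuticular hydrocarbons. The genes described here are those whose symbol starts with Cyp followed by a family number, a subfamily letter and a gene number, which leaves out the cyclophilins. There were 82 such genes among the 16997 of the deposited tables. P450 genes that go by other names, among them the ecdysone synthesis genes phm, dib, sad and shd, are not members and are given only beside them.

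The samples came from a study of unanchored ubiquitin chains in *Drosophila melanogaster*, with 3 genotypes and 4 samples of each. Ub6-GG flies expressed 6 ubiquitins in tandem that end in a GG motif and can be attached to other proteins, Ub6-Stop flies expressed the same chain without that motif, and Control flies had the same background and driver but no Ub6 transgene. In both Ub6 genotypes the transgene was inserted at Attp40, and flies carried 1 copy of it and of the driver sqh-Gal4, which follows the promoter of a myosin light chain gene and acts in all tissues. Every sample was a pool of 10 whole flies, 1 day old, from crosses kept at 25 degrees; the sex of the flies is not given in the sources used here.

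The value used for each gene was its mean level over all 12 libraries, as the log2 of CPM, the reads of a gene per 1000000 reads of a library. This value mixes the 3 genotypes and has no replicate spread. No difference between Ub6-GG, Ub6-Stop and Control is therefore given for any P450 gene, and what follows describes how strongly each was transcribed in these flies as a whole. The reads come from the 3′ ends of transcripts, so levels can be set side by side between genes without a correction for length. In whole flies a low level in many cells and a high level in few cells cannot be told apart, nor can fewer cells of a type and less RNA per cell.

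Depth was read from the levels themselves. The lowest level, 0.25 log2 CPM, was shared by 2186 genes and is that of a gene with no read in any library. The next 12 levels, at which 542 genes stood, were read as those of a single read in 1 of the 12 libraries. They gave library sizes of 1055162 to 2366789 reads with a mean of 1684423, so that 1 read per library of average size is 0.594 CPM, or 0.83 on the log2 scale. A gene at or above that level is described as detected. For a gene with no read, the limit that 3 reads over all libraries allow is 0.148 CPM. Intervals in what follows are exact 95% Poisson intervals on the reads summed over the libraries and cover counting error only.

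Marker genes of the main tissues of the fly were present. All 13 markers examined were detected, at 2.21 to 10.87 log2 CPM. The lowest was repo, of glia, and the highest was Yp1, a yolk protein of the female fat body and follicle cells, while the midgut trypsin alphaTry stood at 10.61, the tubule urate oxidase Uro at 4.64 and the oenocyte fatty acid synthase FASN2 at 6.76. The male genes SP (9.62) and dj (7.89) were detected as well, so transcripts typical of both sexes contributed to the mean levels.

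Most P450 genes were transcribed, but few of them strongly. Of the 82 members, 71 were detected (86.6%), against 12172 of all 16997 genes (71.6%) and 11289 of the 13820 genes matched to a protein-coding gene (81.7%). The median member stood at 3.01 log2 CPM, with quartiles of 1.72 and 4.34, and the median of all genes at 2.64, with quartiles of 0.65 and 4.56. Set against protein-coding genes alone, whose median was 3.26, 34 of the 82 members were above it. Only 3 members, Cyp4g1, Cyp6d5 and Cyp4e2, were among the highest 10% of all genes. Between 1 and 100 reads per library of average size were found for 66 members. At 1 to 10 reads stood 34.1% of members, against 24.2% of all genes, and at 10 to 100 reads 46.3% of members, against 35.7% of all genes. At 100 reads or more the order was the other way, with 4.88% of members against 10.2% of all genes between 100 and 1000 reads, and 1.22% against 1.54% above 1000. No test was made of these shares, since genes are not replicates.

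**Figure D1:**
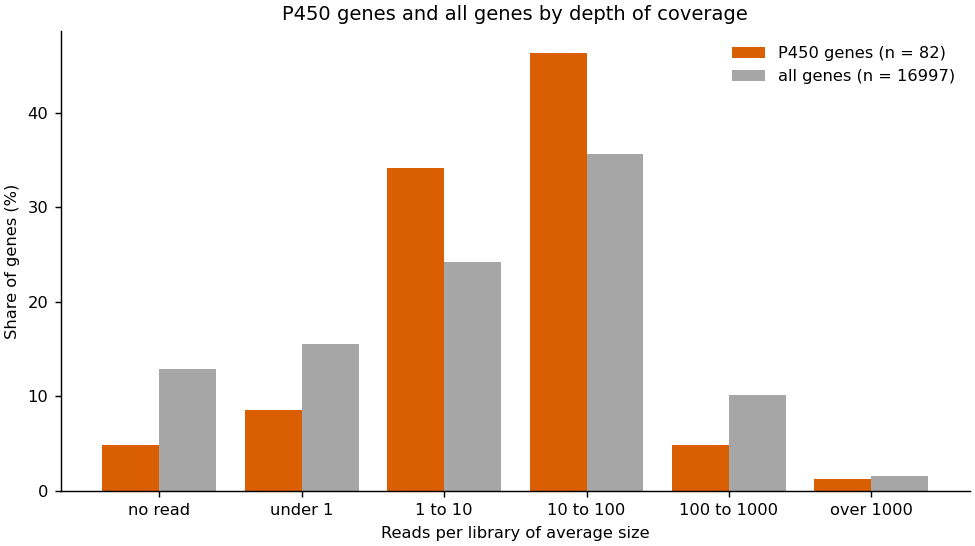
Share of the 82 P450 genes (orange) and of all 16997 genes (grey), in percent, by reads per library of average size. The P450 genes are more frequent than all genes between 1 and 100 reads, and less frequent both below 1 read and above 100 reads.

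Genes of families that act after the P450s on foreign compounds were taken by symbol, as Gst or Ugt followed by a class letter or a number, and genes of these families under other symbols were not counted. The glutathione transferases so named, which join glutathione to reactive compounds, had 33 of 35 genes detected at a median of 3.55 log2 CPM, whereas the UDP-glycosyltransferases so named, which join sugars to them, had 11 of 17 genes detected at a median of 1.15. The summed level was 3147 CPM for the P450 members, 4445 CPM for these 35 glutathione transferases and 81.9 CPM for these 17 UDP-glycosyltransferases. The P450 members together took 0.313% of all reads.

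A single gene made up most of that sum. Cyp4g1, the oxidative decarbonylase that makes the hydrocarbons of the cuticle, in the oenocytes, stood at 10.84 log2 CPM (1838 CPM, interval 1819 to 1857), which is about 3096 reads per library of average size. It alone held 58.4% of all P450 reads and was above 99.5% of the genes of the fly. Cyp6d5, a CYP3 clan enzyme, came next at 8.03 log2 CPM (261 CPM, interval 254 to 268). Cyp4g1 was thus 7.04-fold above the second member, and Cyp6d5 was 3.18-fold above the third. Relative to the median member, at 6.84 CPM, Cyp4g1 was 269-fold higher.

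Below these genes the levels fell off gradually. Cyp4e2 of the CYP4 clan stood at 6.38 log2 CPM (82.0 CPM, interval 78.1 to 86.1). Cyp6g1, known for resistance to DDT and neonicotinoids when overexpressed, stood at 6.10 (67.2 CPM, interval 63.7 to 70.9), and its interval overlapped that of Cyp312a1 at 6.03 (64.3 CPM, interval 60.8 to 67.9), so counting error alone could turn their order. The same holds for Cyp309a1 at 5.91 (58.7 CPM, interval 55.4 to 62.2) and Cyp6v1 at 5.84 (56.2 CPM, interval 52.9 to 59.5). Cyp12a4, a mitochondrial enzyme that gives resistance to lufenuron when overexpressed, followed at 5.64 (48.7 CPM, interval 45.6 to 51.8). Cyp28d1, linked to nicotine metabolism, stood at 5.27 (37.4 CPM, interval 34.7 to 40.1) and Cyp18a1, which inactivates ecdysone, at 5.14 (34.2 CPM, interval 31.7 to 36.8). The interval of Cyp18a1 overlapped those of Cyp28d1 above it and of Cyp317a1 below it (33.5 CPM, interval 31.0 to 36.1). The 10 highest members held 81.0% of all P450 reads and the 20 highest 89.3%.

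**Figure D2:**
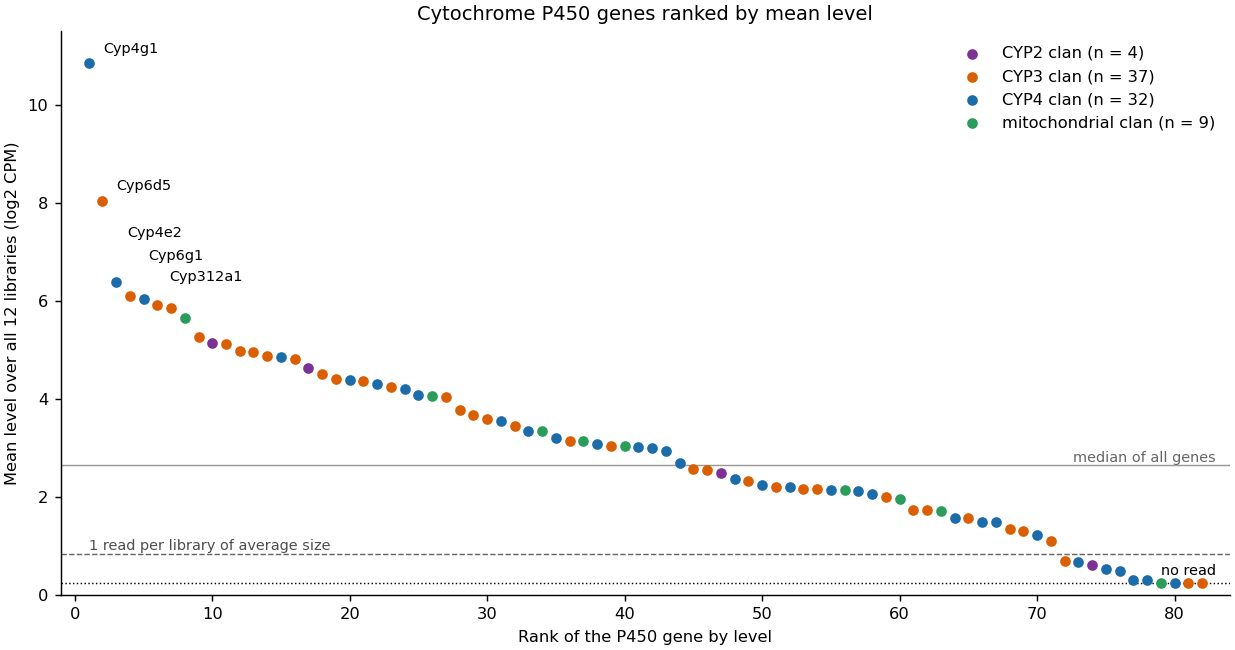
Mean level over the 12 libraries (log2 CPM) of each of the 82 P450 genes, ranked from highest to lowest and coloured by clan. Cyp4g1 at 10.84 and Cyp6d5 at 8.03 stand clear of the rest, 71 genes lie above the dashed line at 1 read per library, and 4 lie on the dotted line of genes with no read.

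At the other end, 11 members were not detected. Cyp6d2, Cyp9c1, Cyp12d1-d and Cyp313a2 had no read in any library, and the limit of 3 reads over all libraries allows them a level of up to 0.148 CPM. Cyp4d2 and Cyp313a5 each stood at a level that fits 1 read over the 12 libraries together. The other members below 1 read per library were Cyp313a3 (0.47 log2 CPM, about 4 reads in all), Cyp316a1 (0.52, about 5 reads), Cyp303a1 (0.61, about 7 reads), Cyp4d14 (0.66, about 8 reads) and Cyp6t3 (0.69, about 9 reads). Cyp303a1 is required for the development of external sensory organs and Cyp6t3 acts in ecdysone synthesis in the prothoracic gland, a larval organ. These 7 genes had between 1 and about 9 reads each over all libraries.

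The CYP3 clan was the largest, with 37 members of which 34 were detected, at a median of 3.45 log2 CPM. The CYP4 clan had 32 members, 26 of them detected, and the lowest clan median among the members taken by symbol, 2.52. The mitochondrial clan had 9 members, 8 detected, at a median of 3.04, and the CYP2 clan had 4 members, 3 detected, at a median of 3.55. The clan medians of the members thus lay within about 1 log2 unit. That is less than the distance between the quartiles of the CYP3 clan (2.00 and 4.81) or the CYP4 clan (1.48 and 3.69). The 6 ecdysone synthesis P450 genes under other symbols, at a median of 0.61 log2 CPM, are left out of every clan here. Such enzymes belong to the CYP2 and mitochondrial clans, and medians of those clans with them included were not computed. The clans differed more in their summed level, because of Cyp4g1. The CYP4 clan held 69.0% of the P450 reads, the CYP3 clan 26.0%, the mitochondrial clan 3.04% and the CYP2 clan 1.98%. With Cyp4g1 left out, the CYP3 clan held 62.5% and the other 31 CYP4 members 25.4%. Of the 20 highest members, 12 were of the CYP3 clan and 5 of the CYP4 clan.

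**Figure D3:**
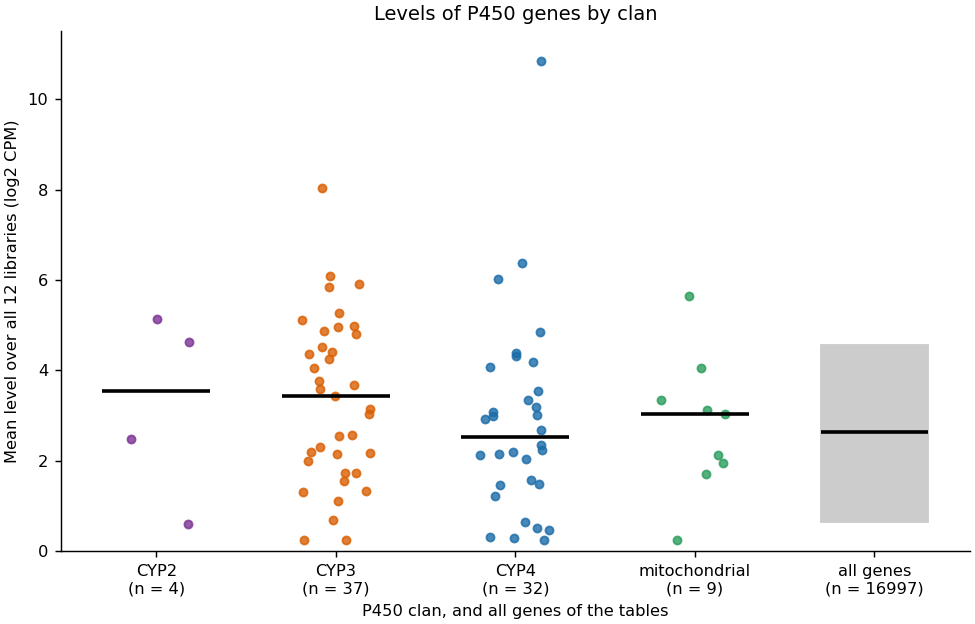
Mean level (log2 CPM) of each P450 gene by clan, with the median as a black bar, and on the right the median and the quartiles (grey box) of all 16997 genes. The clan medians, which leave out the P450 genes under other symbols, lie between 2.52 and 3.55. Cyp4g1 at 10.84 stands apart from the rest of the CYP4 clan.

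Within the CYP3 clan, the CYP6A subfamily, which holds enzymes induced by foreign compounds, was the largest, and all 13 of its members were detected. Their levels ran from 1.31 to 4.98 log2 CPM, and the highest, Cyp6a21, held 21.1% of the subfamily's 143.7 CPM. Cyp6a17, which acts in the brain in temperature preference and in tolerance to pyrethroids, stood at 4.95 (29.8 CPM). Cyp6a2, a xenobiotic-inducible enzyme of the midgut, tubules and fat body, stood at 4.24 (17.7 CPM), and Cyp6a20, which acts in male aggression from support cells of the olfactory sensilla, at 3.60 (10.9 CPM). Cyp6a8, induced by caffeine among others, was lower at 2.00 (2.81 CPM, interval 2.14 to 3.65). Cyp6a18 (3.76), Cyp6a13 (3.67), Cyp6a22 (3.45), Cyp6a23 (3.04), Cyp6a14 (2.56), Cyp6a19 (2.20), Cyp6a16 (1.73) and Cyp6a9 (1.31) filled the range.

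In several other CYP3 subfamilies 1 gene held nearly all reads. Cyp6d5 held 98.8% of the CYP6D reads, beside Cyp6d4 at 2.15 log2 CPM and Cyp6d2 with no read. Cyp6g1 held 95.3% of the CYP6G reads, its partner Cyp6g2, an enzyme of the corpora allata, standing at 2.17. Cyp28d1 held 97.5% of the CYP28D reads, and Cyp28d2 stood at 1.10. Cyp9b2 (4.81) held 95.2% of the CYP9B reads, and Cyp9b1 stood at 1.34. Cyp9h1 (4.88), Cyp9f2 (4.51), Cyp6u1 (4.40) and Cyp6w1 (4.36) were at moderate levels, whereas Cyp28a5 (3.14), Cyp6t1 (2.55), Cyp28c1 (2.32), Cyp308a1 (1.72) and Cyp310a1 (1.56) were lower. Both CYP309A members were well covered, Cyp309a1 at 5.91 and Cyp309a2 at 4.04.

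The CYP4 clan reached from the highest level of the family to no read at all. Its leading genes were Cyp4g1, Cyp4e2 and Cyp312a1, described above. The closest relative of Cyp4g1 by name, Cyp4g15, a P450 of the nervous system, stood at 3.08 log2 CPM (7.24 CPM, interval 6.10 to 8.49) and took the remainder of a subfamily in which Cyp4g1 held 99.6%. Cyp4e3, a tubule gene known for pyrethroid tolerance, stood at 3.35 and Cyp4e1 at 2.99, against 6.38 for Cyp4e2. The CYP4P genes lay within 0.84 log2 units in this mean over the genotypes, Cyp4p2 at 4.39, Cyp4p3 at 4.31 and Cyp4p1 at 3.55. The CYP4D genes were spread from Cyp4d1 (4.19), Cyp4d20 (4.08) and Cyp4d8 (3.02) to Cyp4d14 and Cyp4d2, which were not detected. Among them Cyp4d21, a gene of the male head fat body that acts in courtship, stood at 2.24 (3.53 CPM, interval 2.74 to 4.43). Cyp311a1, needed for the microvilli of the anterior midgut, stood at 2.14 (3.22 CPM, interval 2.48 to 4.10). In the CYP313A subfamily, Cyp313a1 at 4.86 held 95.2% of the reads, Cyp313a4 stood at 1.23, and Cyp313a2, Cyp313a3 and Cyp313a5 were not detected. The remaining detected members of the clan, Cyp4ac3 (3.19), Cyp4s3 (2.93), Cyp4ac1 (2.68), Cyp313b1 (2.36), Cyp4aa1 (2.20), Cyp4ae1 (2.13), Cyp4ad1 (2.05), Cyp318a1 (1.57), Cyp4ac2 (1.48) and Cyp4c3 (1.48), lay between 1.48 and 3.19.

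In the mitochondrial clan, Cyp12a4 held 50.9% of the reads. Cyp12b2 (4.06), Cyp49a1 (3.35), Cyp12e1 (3.13) and Cyp12c1 (3.04) were in the middle of the range, and Cyp12a5, which neighbours Cyp12a4, was at 1.96. Cyp301a1, which acts in the formation of the adult cuticle, stood at 1.70 (2.07 CPM, interval 1.50 to 2.81). Cyp12d1-p and Cyp12d1-d, both linked to the response to DDT and caffeine, share a base name as near-identical copies. Cyp12d1-p stood at 2.13 (3.18 CPM, interval 2.44 to 4.04) and Cyp12d1-d had no read. How reads that match both copies were counted is not given in the sources used here, so the split between them is uncertain. Copies were picked by base name alone. Whether reads also match more than 1 member in other subfamilies or runs was not examined.

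The CYP2 clan was led by Cyp18a1, which held 54.9% of its reads, and Cyp305a1 at 4.62 (23.4 CPM, interval 21.3 to 25.6), with Cyp304a1 at 2.48 and Cyp303a1 below detection. The inactivation of ecdysone by Cyp18a1 can be set beside the P450 genes that make the hormone. Of the 6 ecdysone synthesis genes under other symbols, only phm, the 25-hydroxylase, was detected, at 1.50 log2 CPM (1.65 CPM). spo stood at 0.68, shd, which makes the active 20-hydroxyecdysone, at 0.65, sad at 0.57 and dib at 0.36, and spok had no read. Their summed level was 2.83 CPM, against 34.2 CPM for Cyp18a1 alone.

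P450 enzymes of the microsomes draw electrons from NADPH-cytochrome P450 reductase (Cpr) and in part from cytochrome b5 (Cyt-b5), whereas mitochondrial P450s draw them from adrenodoxin reductase (dare) through a ferredoxin. Cpr stood at 7.27 log2 CPM (152.7 CPM) and Cyt-b5 at 8.34 (322.0 CPM), above all members other than Cyp4g1 and Cyp6d5 for Cpr, and other than Cyp4g1 for Cyt-b5. The mitochondrial partners were lower, with dare at 2.08 (3.05 CPM), Fdx1 at 2.87 (6.12 CPM) and Fdx2 at 5.95 (60.7 CPM). Among regulators of the response to foreign compounds, the transcription factor cnc stood at 7.46, its partner maf-S at 6.53 and its inhibitor Keap1 at 2.51. The nuclear receptor Hr96 of the same response stood at 4.11. Given for its homology alone, ss, the fly homologue of the aryl hydrocarbon receptor, stood at 2.99 and its partner tgo at 3.24. All of these genes were detected.

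**Figure D4:**
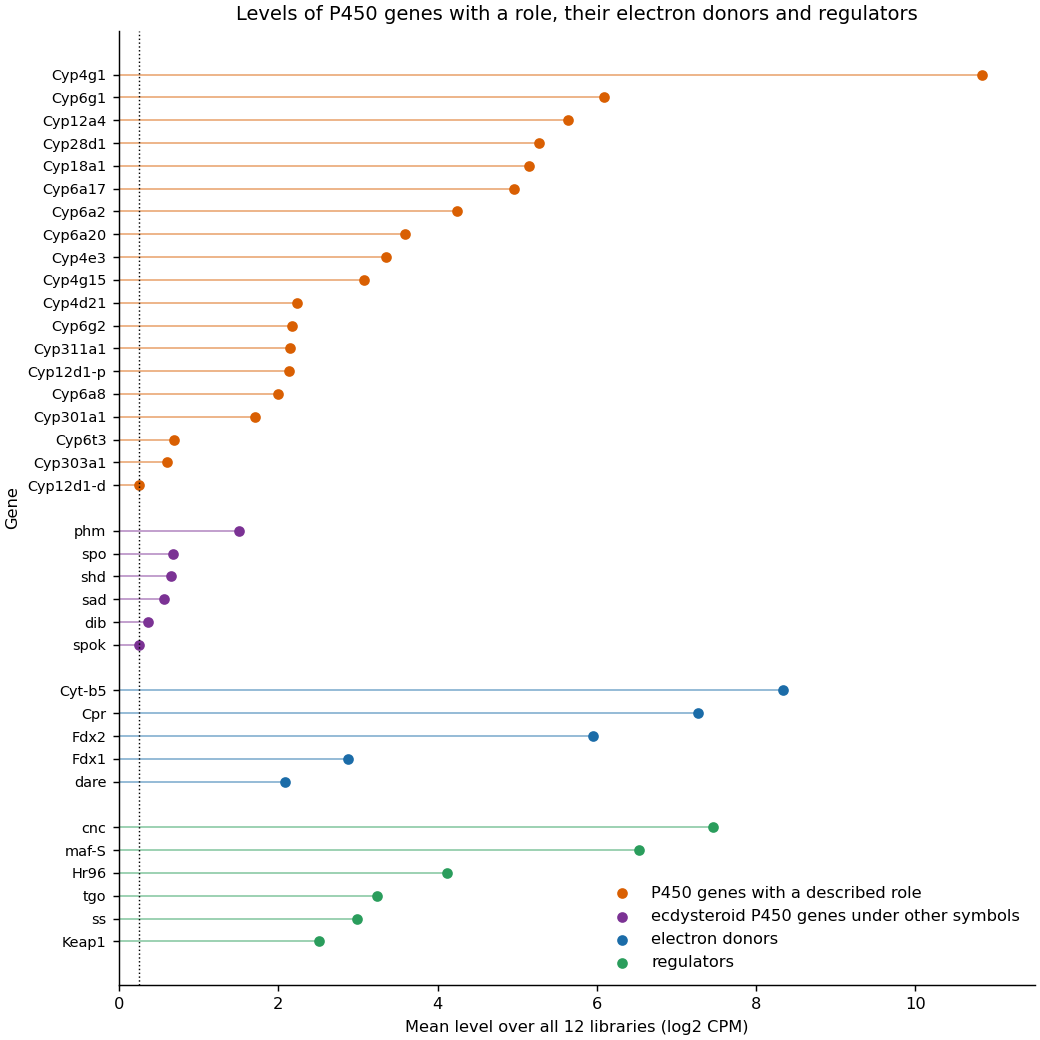
Mean level (log2 CPM) of the 19 P450 genes with a described role, the ecdysone synthesis P450 genes under other symbols, the electron donors and the regulators; the dotted line is the level of a gene with no read. Cyp4g1 at 10.84 is the highest, and phm at 1.50 is the highest of the ecdysone synthesis genes.

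The members share a size and are grouped in the genome. Their longest annotated proteins had 483 to 589 residues with a median of 509.5, against a median of 393 for all matched protein-coding genes, and 78 of 82 lay between 480 and 540 residues. The number of coding exons ran from 1 to 13 with a median of 4. It was lower in the CYP3 clan (median 2) than in the CYP4 clan (median 5.5), and the 5 members with a single coding exon were Cyp4g1, Cyp317a1, Cyp6a13, Cyp6t1 and Cyp303a1, whose levels covered most of the family's range (10.84, 5.12, 3.67, 2.55 and 0.61). On chromosome arm 2R lay 34 of the members (41.5%), against 20.5% of matched protein-coding genes, while 6 lay on 3L (7.32%, against 19.6%). The arm medians were 3.40 log2 CPM on 2R, 2.68 on 2L, 3.56 on 3L, 2.36 on 3R and 2.43 on X.

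In gene order, 39 members stood in 13 runs of members with no other protein-coding gene or pseudogene between them, and 43 stood alone. P450 genes under other symbols were counted as other genes here. A member counted as alone, or at the end of a run, may therefore still adjoin such a P450 gene. The longest run, on 2R, held 9 genes, in order Cyp6a22, Cyp6a17, Cyp6a23, Cyp6a19, Cyp6a9, Cyp6a20, Cyp6a21, Cyp6a8 and Cyp317a1. All 9 were detected, at 1.31 (Cyp6a9) to 5.12 (Cyp317a1), a 26.1-fold range in CPM, and summed to 128.8 CPM. Neighbours within it were often far apart, as with Cyp6a21 at 4.98 and the adjacent Cyp6a8 at 2.00. In another run, Cyp6g1 at 67.2 CPM stood beside Cyp6g2 at 3.30 CPM and Cyp6t3, which was not detected (0.43 CPM, interval 0.20 to 0.85). Cyp28d1 was 38.8-fold above Cyp28d2, Cyp9b2 19.9-fold above Cyp9b1 and Cyp12a4 18.0-fold above Cyp12a5. In 9 of the 13 runs the highest gene held more than 75% of the run's reads. The exceptions were the run of 9, the CYP4AC and CYP4P runs and the pair Cyp311a1 and Cyp318a1. In the CYP4P run the range was 1.87-fold. The run of Cyp313a5, Cyp313a2 and Cyp313a3 was at or near the level of no read throughout.

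The difference in level between adjacent members was near that between members taken at large. The 26 adjacent pairs differed by a median of 1.77 log2 units, with a range of 0.06 to 4.33, against a median of 1.79 over the 3295 other pairs of members. More than 1 log2 unit separated 69.2% of adjacent pairs and 70.7% of other pairs. Of the adjacent pairs, 20 were of 1 subfamily and 16 were transcribed from 1 strand. Pairs share genes with each other and were therefore not tested. Members in runs had a median of 2.68 log2 CPM and members standing alone one of 3.07.

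**Figure D5:**
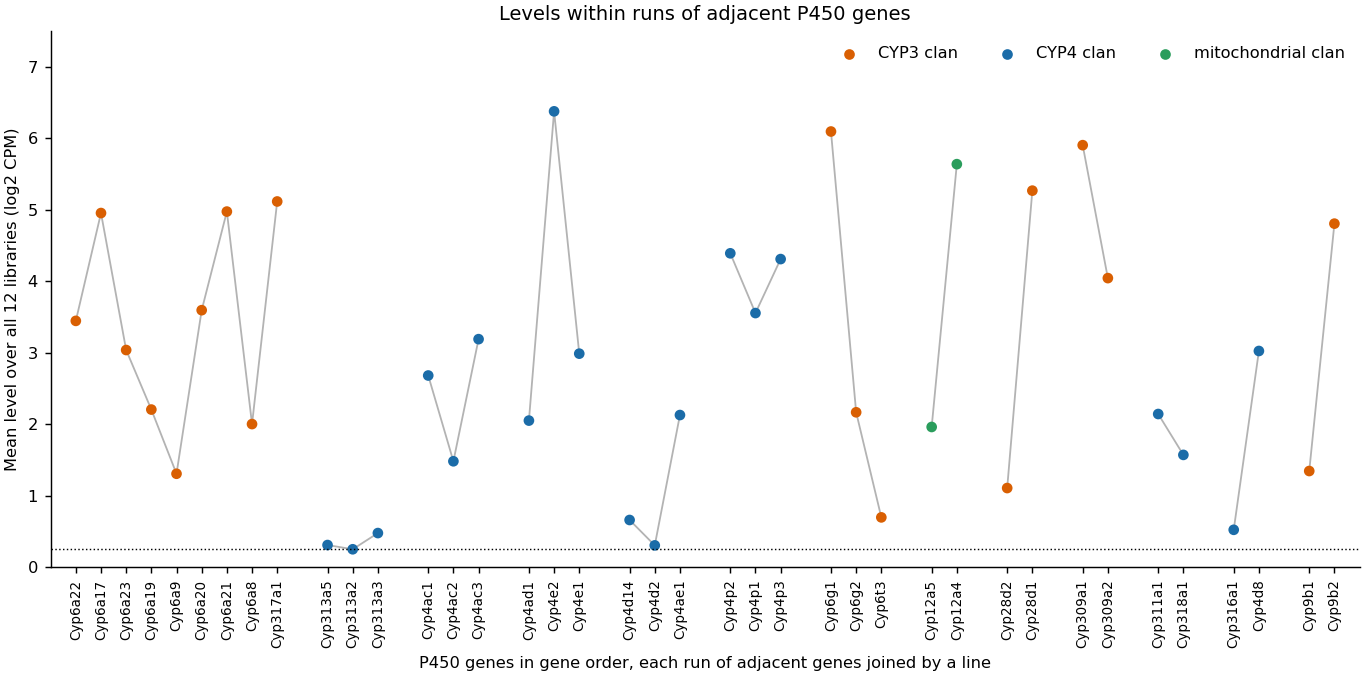
Mean level (log2 CPM) of the 39 P450 genes that stand in 13 runs of adjacent P450 genes, in gene order, with a line joining the genes of a run and colour giving the clan; the dotted line is the level of a gene with no read. Adjacent genes are often far apart, with a median difference of 1.77 log2 units.

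Some levels may include reads of a neighbour, or lack reads that lay in both genes. In a later annotation than the one the authors used, 20 members had an exon overlapping an exon of a gene on the opposite strand, and Cyp6u1 (4.40) overlapped Ufsp1 (3.11 log2 CPM) on its own strand. Whether the counting used strand, and how it treated reads lying in both genes, is not given in the sources used here. Among the higher members, Cyp317a1 overlapped Kank (5.64), Cyp28d1 overlapped CG7742 (2.82) and Cyp12b2 overlapped Jabba (8.37). Cyp6g1 overlapped its own neighbour Cyp6g2, and Cyp6a19 overlapped Cyp6a9. Cyp4aa1 at 2.20 overlapped Strn-Mlck, a muscle kinase at 10.80, and Cyp4d14, which was not detected, overlapped ND-B14.5A at 9.21. Of the 4 members with no read, Cyp6d2 and Cyp9c1 overlapped other genes as well. Cyp4g1, Cyp6d5 and Cyp4e2, the highest members, overlapped no other gene. The effect of such overlaps on these levels, in either direction, was not tested.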

How the data were processed

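RNA of 12 samples, 4 each of Ub6-GG, Ub6-Stop and Control whole flies, was made into 3′ QuantSeq libraries from 250 ng of total RNA. The authors demultiplexed reads with CASAVA 1.8.2, aligned them to dm3 with STAR, tabulated them for each gene and ran edgeR. Each of the 2 deposited tables held the authors' mean log2 CPM over all libraries, with a small count added to avoid the log of 0, and the same value in both tables for all 16997 genes. The other columns held the authors' own fold changes, likelihood ratios and p-values and were not used. Group comparisons, planned for per-sample counts, were therefore not run, and 0 columns of per-sample values were used.

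Levels were turned into reads per library of average size by taking off a prior count of 2. That is edgeR's default, which the authors' settings are assumed to share. CPM values do not depend on it. Library sizes and reads do, and with them detection, the read bands and the Poisson intervals. The lowest level and the 12 levels just above it were solved for the library sizes with scipy 1.17.1. The recovered CPM of all genes summed to 1005875, which is 0.587% above the total that CPM values have by definition. The step was tested only on simulated data made with the same prior count and count model. The assumed prior count itself was therefore not checked. Detection was set at 1 read per library.

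Symbols were matched to the Ensembl annotation of release 6 of the fly genome for names, biotypes, exons, coding lengths and gene order. All 82 members and 16782 of the 16997 genes matched. No coordinates are given, since the builds differ. Clans were assigned from family numbers. Named genes were the 10 highest members, the 3 highest of each clan, the 19 with a described role, the partner genes and near-identical copies, and here all others are given as well. Members and lists were chosen with earlier results of these data known, and 2 genes whose products are not P450 partners were dropped from the partner list after their values were seen.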

Additional observations from a re-analysis of the deposited data

How the results depend on the processing

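Levels from the other table were tried, as was leaving out pseudogenes (0 of the members) and the 2 near-identical copies. The 6 P450 genes under other symbols were also added, and up to 2 genes were allowed between neighbours. These settings moved no count they were tried on by over 1.5 times, and no such median by over 0.58 log2 units. The 6 genes were added to the count of detected members and the median of all members only, not to the clan medians. At 10 or more reads per library, 43 members passed in place of 71. That is 52.4% of members, against 47.4% of all genes and 56.9% of genes matched to a protein-coding gene. The share of members was thus below that of protein-coding genes at this limit, whereas it was above at 1 read per library. The median of the CYP2 clan was 4.62 log2 CPM over its 3 detected members, in place of 3.55. The shares of P450 reads were set against their counting intervals. With the prior count kept in the CPM, Cyp4g1 held 56.7% in place of 58.4% and the 10 highest members 78.9% in place of 81.0%, small shifts that were outside those intervals. Without Cyp4g1, the highest remaining member held 19.9% and the highest 10 together 56.8%. No paired analysis was possible because the columns used carry no replicates, and for the same reason no library could be left out. Levels near the floor rest on few reads, and a mean over genotypes can hide a library that stands apart.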
